A study of Mus musculus with 24 samples.

Results

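The loss of Tsc1 in livers that already lacked Cpt2 was examined by comparing 4 RNA-seq libraries from Tsc1Cpt2 L-/- double-KO (DKO) mice with 4 libraries from Cpt2 L-/- mice. These 8 libraries, taken by genotype label, are part of a series of 24 libraries in 6 groups of 4. Both genotypes were male C57BL/6 mice of 8 to 10 weeks on a chow diet, and the livers were collected after a 24-h fast. The deletions were made with Albumin-Cre, which acts in hepatocytes, on floxed Cpt2 alleles in both genotypes and on floxed Tsc1 alleles in DKO mice, so the absence of Cpt2 is common to both sides of the comparison. RNA was extracted from whole liver, where cells other than hepatocytes keep both genes, so fewer cells of a type and less RNA per cell cannot be told apart. The 4 libraries of Tsc1 L-/- mice and the 4 of control mice (wild type in the labels, littermates with both floxed genes in the study's methods) gave the matching comparison without the loss of Cpt2. The labels give 1 library per sample and name no animals, so p-values measure the spread between these samples, which may be technical in part. Of 35275 genes in the count table, 13641 had enough reads to be tested.

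Tsc1 pairs with Tsc2 in a complex that switches off the small GTPase Rheb and so restrains mTorc1, a kinase complex that works on the surface of the lysosome. Active mTorc1 promotes the synthesis of protein, nucleotides and lipid, inhibits autophagy and keeps the transcription factors Tfeb and Tfe3, which drive lysosomal genes, out of the nucleus. Fasting normally lowers mTorc1 activity in the liver. Cpt2 sits in the inner mitochondrial membrane and converts long-chain acylcarnitines back to acyl-CoA, a step without which long-chain fatty acids cannot enter mitochondrial β-oxidation. The fasted liver depends on this pathway for ketone bodies, and the nuclear receptor Pparα, which fatty acids activate, raises the transcription of its enzymes.

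Total counts ranged from 15974454 to 18461578 in the Cpt2 L-/- libraries and from 14868666 to 18007139 in the DKO libraries. The correlation of log2 CPM (reads scaled to library size by the TMM factors of edgeR) was 0.974 to 0.983 within Cpt2 L-/-, 0.978 to 0.981 within DKO and 0.944 to 0.968 between the genotypes. The first principal component of the 8 libraries held 46.1% of the variance and separated the genotypes, with scores of -44.4 to -26.6 in Cpt2 L-/- and 29.5 to 46.1 in DKO. Mitochondrially encoded genes took 5.45% to 8.06% of the counts in Cpt2 L-/- and 5.08% to 6.41% in DKO. The 14 hepatocyte markers tested summed to 42600.2 to 67229 CPM in Cpt2 L-/- and to 38469.8 to 46934 CPM in DKO, and 1 of them was called higher and 4 lower. Their part in the other results was not tested. Means are given with their SD over n = 4 libraries, and where 2 are joined by a plain "and" the Cpt2 L-/- mean comes first. Values of single libraries are in the order of the replicate numbers. Adjusted p-values are from the quasi-likelihood test of edgeR with Benjamini-Hochberg adjustment over all 13641 genes. A gene is called where its adjusted p was under 0.05.

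In DKO livers 2494 genes were called against Cpt2 L-/- livers (18.3% of the genes tested), with 1484 higher (10.9%) and 1010 lower (7.40%). The change was at least 1 on the log2 scale in either direction for 428 of the higher and 272 of the lower genes, and the median log2 fold change of all genes was -0.01. The 4 and 4 libraries did not overlap for 3134 genes (23.0%), among them 1299 of the higher and 769 of the lower calls. Counts in the gene lists below are given with their share of the list and are read against these 10.9% higher and 7.40% lower of all genes. List counts for Tsc1 L-/- against control are read against the 568 higher and 338 lower genes of that comparison (6.64% of those tested). Protein-coding genes made up 1430 of the higher and 973 of the lower calls. The number of calls rested on single libraries, falling to 1428 without DKO 2 and to 1546 without Cpt2 L-/- 3, against 1712 to 2498 without any other of the 8. A fit of all 24 libraries of the series gave 1065 calls, 652 higher and 413 lower. On the deposited FPKM values tested with limma, the direction was more one-sided than on counts, with 1679 higher and 611 lower (73.3% higher against 59.5%). Of 115 called genes that were followed through 16 alternatives (8 other fits or scales and the omission of each of the 8 libraries), 67 kept the call in all 16 and none changed sign. A log2 fold change of at least 1 as an added criterion is not among the 16 and was not met by 46 of the 115. A call that was lost in some of them is named beside its values with the range of its adjusted p over the alternatives.

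**Figure D1:**
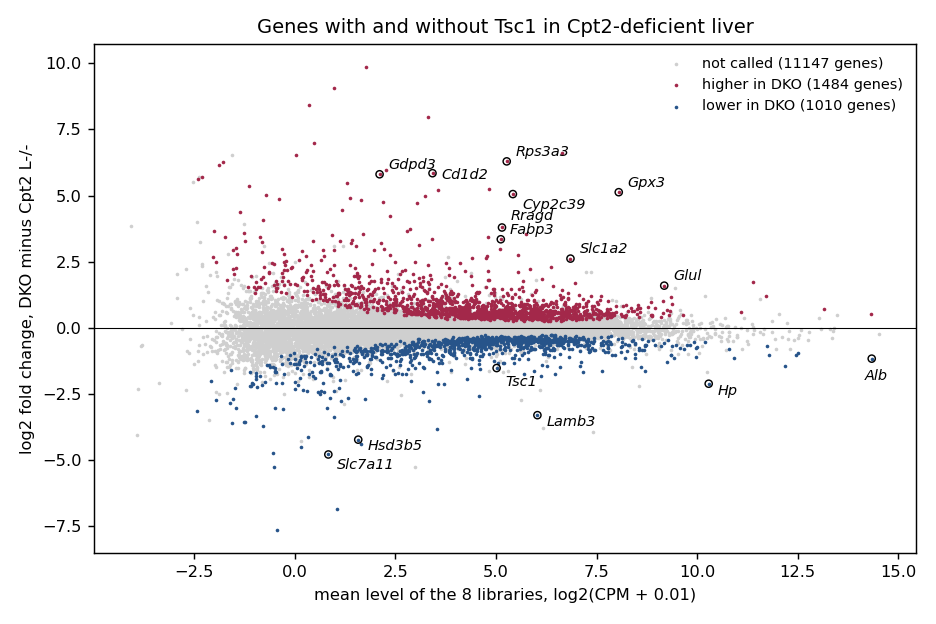
Mean level of each tested gene over the 8 libraries, as log2(CPM + 0.01), against the log2 fold change of DKO minus Cpt2 L-/-. Red points are the 1484 genes called higher and blue points the 1010 called lower in DKO. Circles mark genes given in the text, among them Gpx3 at 5.13 and Lamb3 at -3.30.

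The deleted gene and the mTorc1 machinery were examined first. Tsc1 (ENSMUSG00000026812, chromosome 2 from 28641228 to 28691167 in GRCm38) was at 47.5, 40.4, 53.5 and 51.1 CPM in Cpt2 L-/-, against 18.1, 15.6, 15.5 and 17.1 CPM in DKO (log2 fold change -1.52, SE 0.13, adjusted p = 1.1e-06). The DKO values lay far below the Cpt2 L-/- values with no overlap, and a remainder of 16.6 ± 1.22 CPM stayed in the whole-liver RNA. Counts over the whole of Cpt2 (chromosome 4 from 107903981 to 107923610) do not show whether its floxed part is missing, and they were 92.3 ± 10.1 CPM in Cpt2 L-/- against 96.9 ± 17.6 CPM in DKO, beside 97.6 ± 6.84 CPM in control livers. Tsc2, the GTPase-activating partner, was at 62.4 ± 11.1 CPM in Cpt2 L-/- against 68.2 ± 4.76 CPM in DKO (log2 fold change 0.15, adjusted p = 0.42). Tbc1d7, the third subunit of the complex, was at 4.81 ± 0.82 and 6.45 ± 1.24 CPM (log2 fold change 0.44, adjusted p = 0.118).

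Of 31 genes for mTorc1, its lysosomal anchor and its upstream regulators, 6 rose (19.4%) and 2 fell (6.45%) in DKO, the falls being the deleted gene Tsc1 and Rictor, with a median log2 fold change of 0.21. Rragd (chromosome 4 from 32983037 to 33022180), one of the Rag GTPases that bring mTorc1 to the lysosome, was at 4.54, 4.63, 4.67 and 5.46 CPM in Cpt2 L-/-, against 69.2, 67.4, 71.9 and 56.0 CPM in DKO (log2 fold change 3.79, SE 0.27, adjusted p = 3.84e-07). It was low in every Cpt2 L-/- library and high in every DKO library, and it was also at 39.96 ± 17.4 CPM in Tsc1 L-/- against 1.92 ± 0.519 CPM in control. Sesn3, a sestrin that restrains mTorc1 when amino acids are scarce, was at 6.03, 3.99, 5.02 and 7.73 CPM in Cpt2 L-/-, against 13.4, 9.4, 10.17 and 12.9 CPM in DKO (log2 fold change 1.03, SE 0.22, adjusted p = 0.00458), again without overlap. Lamtor4, Lamtor1 and Lamtor5, subunits of the Ragulator scaffold, and Rragc also rose, with Lamtor4 at 30.7 ± 5.31 CPM in Cpt2 L-/- against 46.1 ± 7.37 CPM in DKO (log2 fold change 0.60, adjusted p = 0.0114). Lamtor4 was at 44.8 ± 1.93 CPM in control, and its call was lost without Cpt2 L-/- 3, without DKO 2 and in the fit of all 24 libraries (adjusted p = 0.00452 to 0.11). Rictor, the scaffold of the other mTOR complex, mTorc2, was at 27.2, 24.6, 28.1 and 29.4 CPM in Cpt2 L-/-, against 17.4, 14.97, 17.4 and 20.7 CPM in DKO (log2 fold change -0.61, SE 0.15, adjusted p = 0.00773). All 4 DKO values were below the lowest Cpt2 L-/- value, though the call was lost on the FPKM values (adjusted p = 0.00121 to 0.0614).

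Among 19 effectors of mTorc1, 4 rose (21.1%) and 2 fell (10.5%). DESeq2 called 4 higher and 3 lower, and edgeR with the replicate number as a block called 2 higher and 1 lower. Eif4ebp1, which encodes the translational repressor 4E-BP1 that mTorc1 inactivates, was at 124, 92.1, 68.9 and 86.5 CPM in Cpt2 L-/-, against 171, 225, 212 and 173 CPM in DKO (log2 fold change 1.09, SE 0.16, adjusted p = 0.00029). Every DKO library exceeded every Cpt2 L-/- library, while control livers held 52.2 ± 4.97 CPM and Tsc1 L-/- livers 89.4 ± 14.2 CPM. Eef2k, Rps6kb2 and Rps6 were the other members called higher. Rps6kb1, which encodes the S6 kinase, was at 39.7 ± 4.49 CPM in Cpt2 L-/- against 37.2 ± 3.52 CPM in DKO (log2 fold change -0.08, adjusted p = 0.632). Maf1, a repressor of RNA polymerase III that mTorc1 inhibits, was at 41.6, 34.4, 38.8 and 40.1 CPM in Cpt2 L-/-, against 24.9, 28.6, 26.2 and 25.6 CPM in DKO (log2 fold change -0.54, SE 0.11, adjusted p = 0.00388), with 25.7 ± 2.71 CPM in control. Its DKO values lay in the control range, below all Cpt2 L-/- values, and its call was lost in the fit of all 24 libraries (adjusted p = 0.000103 to 0.053). Tfe3 was at 36.7 ± 6.96 CPM in Cpt2 L-/- against 26.9 ± 2.49 CPM in DKO (log2 fold change -0.43, adjusted p = 0.0398). Tfe3 lost its call in 5 of 8 other fits and without any 1 library except Cpt2 L-/- 2 (adjusted p = 0.00749 to 0.213).

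No member of a list of 19 insulin signaling and FoxO genes rose and 3 fell (15.8%), with a median log2 fold change of -0.35. In this list 1 member was higher and 7 were lower at an unadjusted p under 0.05 in edgeR, and DESeq2 called 0 higher and 6 lower. Insr, the insulin receptor, was at 146, 151, 202 and 164 CPM in Cpt2 L-/-, against 106, 81.9, 118 and 106 CPM in DKO (log2 fold change -0.67, SE 0.14, adjusted p = 0.00346). The highest DKO library was below the lowest Cpt2 L-/- library, whereas control and Tsc1 L-/- livers held 141 ± 16.6 and 179 ± 21.4 CPM. Foxo3, a transcription factor that insulin signaling excludes from the nucleus, was at 80.6, 90.8, 90.9 and 129 CPM in Cpt2 L-/-, against 55.2, 56.2, 55.9 and 59.4 CPM in DKO (log2 fold change -0.77, SE 0.20, adjusted p = 0.0126). Foxo3 lost its call only in the fit of all 24 libraries (adjusted p = 0.00211 to 0.102). Igf1, the liver-derived growth factor, was at 380.0 ± 51.6 CPM in Cpt2 L-/- against 242 ± 75.9 CPM in DKO (log2 fold change -0.63, adjusted p = 0.0205), and it overlapped between the groups. Its call was lost without Cpt2 L-/- 4, DKO 2 or DKO 4 (adjusted p = 0.00367 to 0.0623). Irs2, the receptor substrate that FoxO induces in fasting, was at 32.7 ± 11.4 and 33.3 ± 16.5 CPM, and Igfbp1 at 595 ± 178 and 943 ± 365 CPM, neither of them called (adjusted p = 0.95 and 0.467).

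Lysosomal genes were prominent among the calls in DKO livers. Of 69 genes for lysosomal hydrolases and membrane proteins, 29 were higher (42.0%) and 2 lower (2.90%) in DKO, beside 10.9% and 7.40% of all genes, and the median log2 fold change was 0.27. The median of the members lay between 0.11 and 0.21 above their 8-library means in every DKO library and between 0.06 and 0.22 below them in every Cpt2 L-/- library. All but 5 of the 18 subunits of the vacuolar proton pump, which acidifies the lysosome, were higher, and none was lower (13 of 18, 72.2%, median log2 fold change 0.48). At an unadjusted p under 0.05 in edgeR 14 were higher and 0 lower, and DESeq2 called 13 and 0. Atp6v1e1, Atp6v1b2, Atp6v0a2, Atp6v0d2 and Tcirg1 were the members not called.

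The 300 bases around the transcription start of 5 genes, 3 of them from the lysosomal and proton pump lists, are shown because lysosomal genes with an E-box of the letters TCACGTG are bound by Tfeb and Tfe3. The sequences are from RefSeq (GRCm38.p6), 5′ to 3′ on the strand of the gene, from 250 bases before to 50 after the annotated start. Capitals mark TCACGTG on either strand, where the other strand reads CACGTGA. Lamp1, Atp6v0b and Rragd were chosen after their values were seen, Cd63 as the lysosomal gene with the largest rise, and Asns as the best known target of the amino acid response factor Atf4.
Lamp1 (chr8:13158911-13159210, + strand): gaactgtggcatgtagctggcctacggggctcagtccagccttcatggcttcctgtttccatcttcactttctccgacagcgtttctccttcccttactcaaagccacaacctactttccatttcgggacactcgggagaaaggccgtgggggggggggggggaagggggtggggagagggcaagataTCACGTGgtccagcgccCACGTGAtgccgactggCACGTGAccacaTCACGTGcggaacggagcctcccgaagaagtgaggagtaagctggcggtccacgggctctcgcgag
Atp6v0b (chr4:117887280-117887579, - strand): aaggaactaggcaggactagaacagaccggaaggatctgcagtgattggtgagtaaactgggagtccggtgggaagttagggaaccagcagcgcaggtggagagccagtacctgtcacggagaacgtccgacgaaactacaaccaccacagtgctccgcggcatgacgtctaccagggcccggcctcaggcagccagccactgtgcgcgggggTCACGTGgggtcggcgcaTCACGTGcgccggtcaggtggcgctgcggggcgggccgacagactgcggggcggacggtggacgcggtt
Cd63 (chr10:128909095-128909394, + strand): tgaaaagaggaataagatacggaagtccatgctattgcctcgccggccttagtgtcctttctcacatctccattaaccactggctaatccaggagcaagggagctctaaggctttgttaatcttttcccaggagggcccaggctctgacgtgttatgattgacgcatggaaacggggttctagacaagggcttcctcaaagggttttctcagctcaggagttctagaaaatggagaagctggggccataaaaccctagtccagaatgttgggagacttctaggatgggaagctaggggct
Rragd (chr4:32982748-32983047, + strand): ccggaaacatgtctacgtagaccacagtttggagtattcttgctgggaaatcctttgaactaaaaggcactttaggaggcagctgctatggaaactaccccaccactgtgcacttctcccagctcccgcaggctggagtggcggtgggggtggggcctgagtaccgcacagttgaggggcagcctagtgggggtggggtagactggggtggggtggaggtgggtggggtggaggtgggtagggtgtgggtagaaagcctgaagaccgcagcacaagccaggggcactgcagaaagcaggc
Asns (chr6:7693160-7693459, - strand): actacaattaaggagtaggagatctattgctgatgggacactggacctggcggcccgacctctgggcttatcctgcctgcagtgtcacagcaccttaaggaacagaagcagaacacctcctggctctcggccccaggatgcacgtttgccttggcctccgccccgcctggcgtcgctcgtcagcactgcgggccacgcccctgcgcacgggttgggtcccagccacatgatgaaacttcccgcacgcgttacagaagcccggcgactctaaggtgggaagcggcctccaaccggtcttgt

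The Lamp1 window held 4 such E-boxes, 62, 45, 28 and 16 bases before the start, and the Atp6v0b window held 2, at 37 and 19 bases before it. The Cd63, Rragd and Asns windows held none, which says only that these letters are not in these windows. The whole Cd63 window lies after the gene start given below for Cd63, so the bases before that start were not searched. Across RefSeq, 1160 of 27025 genes with a promoter entry (4.29%) held the E-box, and of the 10416 tested genes with an entry, which are 76.4% of those tested, 6.95% held it. Of the 69 lysosomal genes 56 matched an entry and 15 of them (26.8%) held it. Of these 15 genes 5 were called (Lamp1, Gla, Naglu, Sumf1 and Ctsa) and 10 were not. In the mTorc1 list 5 of 29 genes with an entry (17.2%) held it, including the called genes Lamtor1, Lamtor4 and Rragc. Fewer than 80% of the proton pump genes matched an entry, so no share is given for them, and Atp6v0b, Atp6v0d1, Atp6v0e and Atp6v1a held it. A second motif, TGATGNAAT on either strand, which binds Atf4 with C/EBP partners, was in 293 of 27025 genes (1.08%) and in 2 of 27 genes of the Atf4 list (7.41%), Fgf21 and Nupr1. Only these exact letters were searched, so an element with other letters, in the Asns window too, would not be counted. The direct repeat 1 element bound by Pparα, here 2 copies of AGGTCA with 1 base between them on either strand, was in 13 of 27025 genes (0.0481%) and in 0 of 40 Pparα targets with an entry. A match is a run of letters in a 300-base window and was not tested for binding.

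Lamp1 (ENSMUSG00000031447, chromosome 8 from 13159135 to 13175338), the most abundant glycoprotein of the lysosomal membrane, was at 422, 467, 442 and 521 CPM in Cpt2 L-/-, against 794, 966, 796 and 867 CPM in DKO (log2 fold change 0.91, SE 0.13, adjusted p = 0.000231). The DKO libraries all exceeded the Cpt2 L-/- libraries, which in turn were below the 609.7 ± 59.0 CPM of control livers. Atp6v0b (chromosome 4 from 117884326 to 117887333), a membrane subunit of the proton pump, was at 58.2, 54.4, 41.1 and 34.5 CPM in Cpt2 L-/-, against 90.0, 113, 89.1 and 95.9 CPM in DKO (log2 fold change 1.06, SE 0.14, adjusted p = 0.000125), and here too the groups were apart. Atp6ap2, an accessory subunit, was at 53.2, 51.8, 47.0 and 55.7 CPM in Cpt2 L-/-, against 81.5, 103, 96.4 and 95.0 CPM in DKO (log2 fold change 0.87, SE 0.13, adjusted p = 0.0002). The cytosolic subunits Atp6v1f (41.0 ± 6.8 CPM in Cpt2 L-/- against 67.5 ± 8.76 CPM in DKO, log2 fold change 0.73, adjusted p = 0.000851) and Atp6v1a (69.8 ± 9.28 and 104 ± 9.88 CPM, log2 fold change 0.60, adjusted p = 0.00277) rose with them. Atp6v0d1 rose from 70.8 ± 4.14 to 93.9 ± 10.16 CPM (log2 fold change 0.43, adjusted p = 0.0097). Atp6v1h, at 67.7 ± 8.5 and 92.8 ± 8.24 CPM (log2 fold change 0.47, adjusted p = 0.0101). Atp6v1h lost its call without Cpt2 L-/- 3 and in the fit of all 24 libraries (adjusted p = 0.00424 to 0.0906).

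Hydrolases were among the rises. Cathepsins L and Z, the proteases encoded by Ctsl and Ctsz, rose by 1.73 and 1.03 on the log2 scale (adjusted p = 0.00231 and 0.000104). Cathepsin D, encoded by Ctsd, was at 506 ± 33.3 and 599 ± 47.7 CPM and was not called by edgeR (log2 fold change 0.26, adjusted p = 0.131), while limma on both FPKM scales called it (adjusted p = 0.024 to 0.314 over the alternatives). The members that fell were Ctss, a cathepsin of antigen-presenting cells, at 22.6 ± 4.94 and 14.1 ± 4.17 CPM (log2 fold change -0.66, adjusted p = 0.0421). Hgsnat, an acetyltransferase of heparan sulfate breakdown, was at 81.7 ± 7.18 and 59.2 ± 10.16 CPM (log2 fold change -0.45, adjusted p = 0.023). Neither fall held throughout, since both were lost in the fit of all 24 libraries. Ctss was also lost without the filter, on the FPKM values and without Cpt2 L-/- 1, Cpt2 L-/- 4, DKO 2 or DKO 4, and Hgsnat without Cpt2 L-/- 3, Cpt2 L-/- 4, DKO 1, DKO 2 or DKO 4 (adjusted p = 0.0198 to 0.138 for Ctss and 0.00686 to 0.0741 for Hgsnat).

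Cd63 (chromosome 10 from 128908919 to 128912816), a tetraspanin of late endosomes and secreted vesicles, was at 45.1, 35.9, 16.2 and 16.8 CPM in Cpt2 L-/-, against 152, 178, 112 and 109.5 CPM in DKO (log2 fold change 2.29, SE 0.43, adjusted p = 0.00301). Gpnmb, a glycoprotein of lysosome-rich macrophages, was at 25.5, 21.7, 10.6 and 23.7 CPM in Cpt2 L-/-, against 100.1, 134, 77.3 and 70.1 CPM in DKO (log2 fold change 2.24, SE 0.34, adjusted p = 0.000677). Cd68, a lysosomal membrane protein of macrophages, was at 50.6, 37.1, 22.6 and 29.5 CPM in Cpt2 L-/-, against 100.4, 126, 114 and 34.6 CPM in DKO (log2 fold change 1.43, SE 0.32, adjusted p = 0.00722). Cd63 and Gpnmb were apart in the groups, while Cd68 in DKO 4 lay among the Cpt2 L-/- values. In control livers these genes were at 8.5 ± 2.47, 1.7 ± 0.63 and 8.44 ± 1.5 CPM. Gpnmb and Cd68 are also on a list of 23 Kupffer cell and macrophage markers, of which they were the only 2 called higher while 9 were lower, and the markers summed to 454 to 767 CPM in Cpt2 L-/- and 449.8 to 628 CPM in DKO. The part of macrophages in these 3 rises was not tested.

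**Figure D2:**
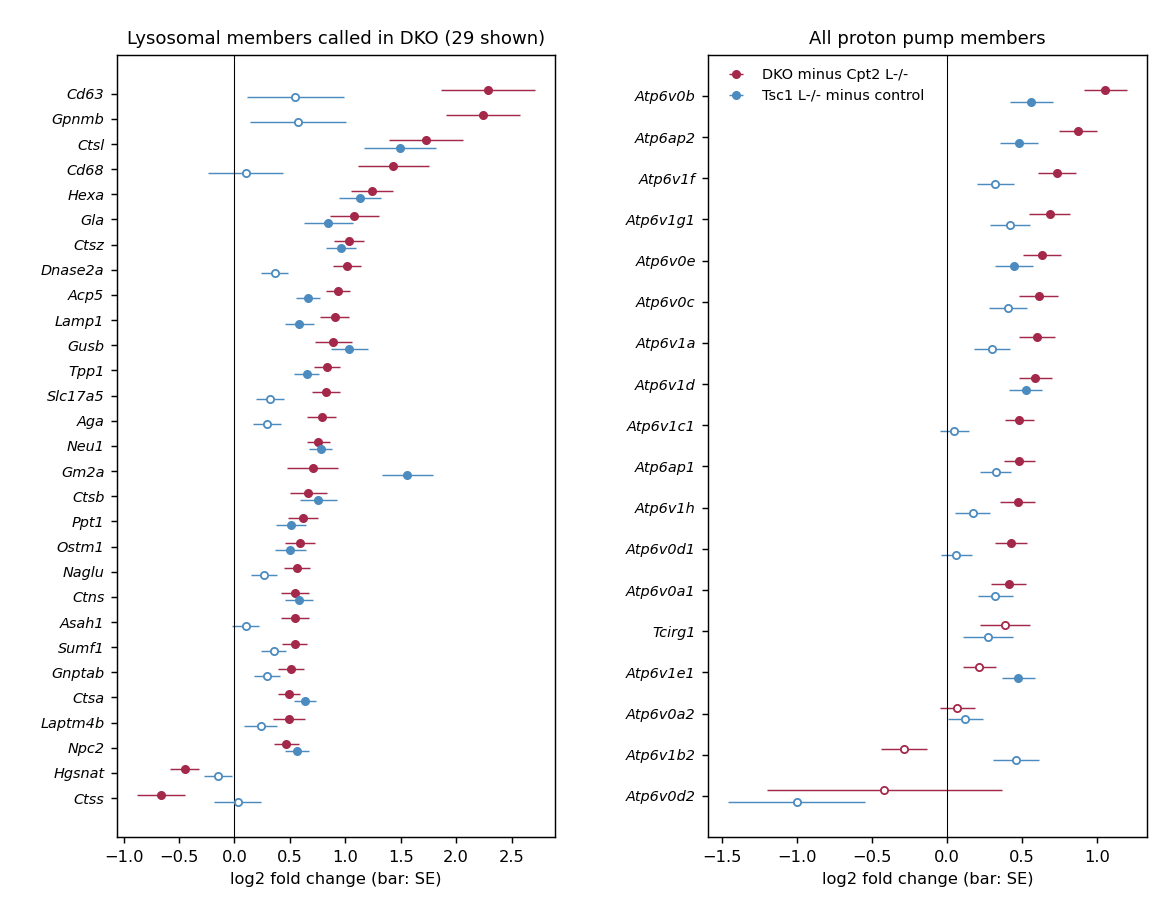
Log2 fold change with its SE of 29 of the 31 lysosomal genes called in DKO (left) and of all 18 proton pump genes (right), in red for DKO minus Cpt2 L-/- and in blue for Tsc1 L-/- minus control, with filled points for called and open points for uncalled genes. The red points of the proton pump reach from -0.42 for Atp6v0d2 to 1.06 for Atp6v0b, and Cd63, Gpnmb and Cd68 are high in red with open blue points.

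Without the loss of Cpt2, Tsc1 deletion changed part of the same set. In Tsc1 L-/- against control livers, where 6.64% of all genes were called, 23 of the 69 lysosomal genes were higher, and 17 were called higher in both comparisons. For the proton pump 5 of 18 were higher and 4 were called in both. No lysosomal or proton pump gene was called for the interaction, which tests whether the effect of Tsc1 loss differs with Cpt2 status. Lamp1 had a log2 fold change of 0.59 in Tsc1 L-/- livers (interaction 0.32, adjusted p = 0.378) and Cd63 of 0.55 (1.74, adjusted p = 0.143).

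Of 42 autophagy genes 5 were higher (11.9%) and 6 lower (14.3%), beside 10.9% and 7.40% of all genes, with a median of -0.05. Gabarap, an Atg8 protein of the autophagosome membrane, was at 186, 208, 166 and 142 CPM in Cpt2 L-/-, against 273, 283, 253 and 239.6 CPM in DKO (log2 fold change 0.60, SE 0.12, adjusted p = 0.00357). Gabarap lost its call by a narrow margin in the fit of all 24 libraries (adjusted p = 0.000114 to 0.0507). Becn1, a subunit of the lipid kinase that starts autophagosomes, was at 43.5, 44.2, 42.3 and 41.1 CPM in Cpt2 L-/-, against 54.1, 56.1, 63.6 and 56.0 CPM in DKO (log2 fold change 0.44, SE 0.09, adjusted p = 0.00335), and the groups did not overlap for either gene. Atg2a, a lipid transfer protein of the growing autophagosome, was at 202, 177, 210.0 and 239.7 CPM in Cpt2 L-/-, against 98.9, 109, 100.3 and 130.1 CPM in DKO (log2 fold change -0.90, SE 0.15, adjusted p = 0.000713). Its Cpt2 L-/- values stood above all control, Tsc1 L-/- and DKO values, and its DKO values were nearer to the 86.4 ± 5.53 CPM of control livers. Tecpr1, which tethers autophagosomes to lysosomes, fell from 27.2 ± 5.14 to 17.0 ± 1.71 CPM (log2 fold change -0.66, adjusted p = 0.00214), with 17.0 ± 1.1 CPM in control. The cargo receptor Sqstm1 was at 1683 ± 398 and 1682 ± 359 CPM (log2 fold change 0.02, adjusted p = 0.971), Map1lc3b at 184 ± 19.9 and 185 ± 16.9 CPM (log2 fold change 0.02, adjusted p = 0.923) and Ulk1, the kinase that mTorc1 inhibits, at 101 ± 8.81 and 82.1 ± 11.6 CPM (log2 fold change -0.28, adjusted p = 0.181).

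Of 32 genes for chaperones of the endoplasmic reticulum (ER) and the unfolded protein response, 11 rose (34.4%) and 0 fell in edgeR, where 2 were lower at an unadjusted p under 0.05 and DESeq2 called 1 lower. Manf, a secreted ER stress protein, was at 37.8, 20.8, 19.1 and 25.5 CPM in Cpt2 L-/-, against 77.7, 99.4, 63.5 and 58.0 CPM in DKO (log2 fold change 1.55, SE 0.25, adjusted p = 0.000717). All DKO values were above all Cpt2 L-/- values, beside 87.3 ± 22.0 CPM in control against 99.4 ± 22.7 CPM in Tsc1 L-/- livers. Hspa5, the ER chaperone BiP, was at 403, 302, 328 and 472.2 CPM in Cpt2 L-/-, against 657, 654, 612 and 553 CPM in DKO (log2 fold change 0.74, SE 0.22, adjusted p = 0.0285), beside 795 ± 218 CPM in control livers. Its call was lost without Cpt2 L-/- 2, Cpt2 L-/- 3, DKO 1, DKO 2 or DKO 3 and in the fit of all 24 libraries (adjusted p = 0.00558 to 0.225). Sdf2l1, an ER cochaperone, and Sec61b, a subunit of the protein channel of the ER, were at 4.58 ± 2.09 and 13.6 ± 3.94 CPM in Cpt2 L-/- against 13.2 ± 3.29 and 31.1 ± 7.72 CPM in DKO (adjusted p = 0.0153 and 0.0179). Without Cpt2 L-/- 3 neither was called, nor was Sec61b without Cpt2 L-/- 4 or DKO 2 or Sdf2l1 in the fit of all 24 libraries (adjusted p = 0.000287 to 0.065 for Sdf2l1 and 0.00111 to 0.0633 for Sec61b). Xbp1, a transcription factor of this response, was at 232 ± 38.7 and 182 ± 11.4 CPM and not called (log2 fold change -0.32, adjusted p = 0.116).

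Aminoacyl-tRNA synthetases, which load amino acids on tRNAs, had 10 of 40 members higher (25%) and 0 lower (17 and 0 at an unadjusted p under 0.05 in edgeR, 9 and 0 called by DESeq2), with a median of 0.27. Aars2, the mitochondrial alanine enzyme, was at 13.4, 12.6, 13.8 and 13.7 CPM in Cpt2 L-/-, against 23.2, 25.1, 18.1 and 18.7 CPM in DKO (log2 fold change 0.69, SE 0.12, adjusted p = 0.000913), with 20.6 ± 1.78 CPM in control. Sars, the cytosolic serine enzyme, was at 118 ± 10.4 and 176 ± 27.5 CPM (log2 fold change 0.59, adjusted p = 0.0178). Sars lost its call without Cpt2 L-/- 3, without DKO 2 and in the fit of all 24 libraries (adjusted p = 0.00725 to 0.108). Aars was at 194 ± 24.4 and 226 ± 9.57 CPM (log2 fold change 0.24, adjusted p = 0.178). In Tsc1 L-/- against control livers, where 6.64% of all genes were called, 1 of the 40 was called, and it was lower.

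Of 84 cytosolic ribosomal protein genes 18 were higher (21.4%) and 1 lower, with a median of 0.34. The counts were 46 and 1 at an unadjusted p under 0.05 in edgeR, 24 and 1 in DESeq2 and 31 and 0 with the replicate number as a block. Tsc1 L-/- against control had 1 call on this list, which was lower, and a median of -0.18. The list includes near-identical copies whose reads could have been split by the counting. Rps27l, a ribosomal protein-like gene induced by p53, was at 115, 116, 72.0 and 64.8 CPM in Cpt2 L-/-, against 138, 172, 139.7 and 134 CPM in DKO (log2 fold change 0.68, SE 0.17, adjusted p = 0.00895). Rps27l lost its call in the fit of all 24 libraries (adjusted p = 0.00193 to 0.16). In 44 genes of ribosome biogenesis 3 were higher (6.82%, below the 10.9% of all genes) and 0 lower (5 and 5 at an unadjusted p under 0.05 in edgeR, 3 and 2 called by DESeq2). In 45 proteasome genes 6 were higher and 0 lower (16 and 0 unadjusted, 6 and 0 in DESeq2), so 13.3% were higher beside 10.9% of all genes. Psmd14, the deubiquitinase of the proteasome lid, was at 48.2, 49.9, 43.7 and 48.3 CPM in Cpt2 L-/-, against 80.1, 81.9, 62.7 and 71.4 CPM in DKO (log2 fold change 0.66, SE 0.11, adjusted p = 0.000903). Psmd8, another lid subunit, was at 281 ± 43.8 and 462 ± 62.1 CPM (log2 fold change 0.73, adjusted p = 0.00906). Both calls were lost in the fit of all 24 libraries only (adjusted p = 4.61e-06 to 0.0909 for Psmd14 and 0.0018 to 0.0726 for Psmd8).

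The copies Rps3a3 and Rps3a2 differed from the rest of the ribosomal list. Rps3a3 was at 1.01, 1.2, 1.3 and 0.398 CPM in Cpt2 L-/-, against 50.3, 69.0, 88.5 and 96.1 CPM in DKO, with 65.9 ± 27.2 CPM in control against 56.0 ± 21.9 CPM in Tsc1 L-/-, and Rps3a2 was at 0.48, 0.697, 0.591 and 0.341 CPM in Cpt2 L-/-, against 4.62, 15.7, 7.69 and 11.3 CPM in DKO. Hist1h2al, a histone gene, was at 0.16, 0, 0.0591 and 0.0568 CPM in Cpt2 L-/-, against 11.0, 16.2, 24.6 and 27.7 CPM in DKO, which is at least 114-fold higher in DKO against a floor of 3 counts per library, and at 23.2 ± 12.04 CPM in control. Cd1d2, an antigen-presenting molecule with a close neighbor copy, was at 0.107, 0.254, 0.768 and 0.341 CPM in Cpt2 L-/-, against 15.2, 11.2, 28.7 and 29.1 CPM in DKO and at 35.5 ± 19.4 CPM in control. These 4 genes were near 0 in the 4 Cpt2 L-/- libraries and present in the control, Tsc1 L-/- and DKO libraries. They were near 0 too in the other 8 libraries of the series, from Ppara KO and Cpt2 Ppara KO mice, where Rps3a3 was at 0.206 to 3.48 CPM and Cd1d2 at 0.0696 to 0.828 CPM. The labels do not relate the DKO and Cpt2 L-/- mice by litter, so for these and all other genes of the comparison the deletion of Tsc1 and any difference in the origin of the mice or libraries cannot be told apart.

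Of 23 genes for serine, glycine and one-carbon metabolism 7 rose (30.4%) and 4 fell (17.4%), with enzymes that make serine among the rises, and DESeq2 called 7 in each direction. Psat1, which transaminates the serine precursor, was at 13.5, 5.45, 7.44 and 14.5 CPM in Cpt2 L-/-, against 42.7, 51.7, 51.6 and 34.1 CPM in DKO (log2 fold change 2.15, SE 0.53, adjusted p = 0.0138). The DKO libraries were all above the Cpt2 L-/- libraries, and control livers held 0.668 ± 0.681 CPM and Tsc1 L-/- livers 8.18 ± 6.57 CPM. Its adjusted p passed 0.05 only without Cpt2 L-/- 3 (0.00098 to 0.0502 over the alternatives). Psph, the last enzyme of serine synthesis, was at 2.46, 3.3, 3.54 and 2.95 CPM in Cpt2 L-/-, against 10.6, 18.5, 9.78 and 10.4 CPM in DKO (log2 fold change 2.03, SE 0.22, adjusted p = 1.51e-05), with DKO 2 highest and no overlap. Aldh1l2, a mitochondrial folate enzyme, was at 0.587, 0.0634, 0.414 and 0.739 CPM in Cpt2 L-/-, against 1.48, 1.42, 2.41 and 2.51 CPM in DKO (log2 fold change 2.10, SE 0.58, adjusted p = 0.0177). Aldh1l2 lost its call without Cpt2 L-/- 3 (adjusted p = 0.00243 to 0.0548). Mthfd2, another mitochondrial folate enzyme, was at 8.46 ± 4.06 and 18.5 ± 5.16 CPM (log2 fold change 1.14, adjusted p = 0.0213). Mthfd2 lost its call without Cpt2 L-/- 2, Cpt2 L-/- 3, DKO 2 or DKO 3 and in the fit of all 24 libraries (adjusted p = 0.00662 to 0.112). Gnmt, which consumes S-adenosylmethionine to methylate glycine, was at 643, 922, 849.5 and 1090.4 CPM in Cpt2 L-/-, against 364, 413, 612 and 300.1 CPM in DKO (log2 fold change -1.03, SE 0.25, adjusted p = 0.00894). Gnmt lost its call in the fit of all 24 libraries (adjusted p = 0.000471 to 0.057). Aldh1l1, Cbs and Mat1a also fell, though the call of Mat1a was lost without any 1 of the 8 libraries, without the filter, with the replicate block and in the fit of all 24 libraries (adjusted p = 0.00765 to 0.151). These 23 genes summed to 11857 to 17852 CPM in Cpt2 L-/- and to 6210.5 to 9809 CPM in DKO.

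Targets of Atf4, the transcription factor of the amino acid response, gave 5 of 31 higher (16.1%) and 3 lower (9.68%), beside 10.9% and 7.40% of all genes, with a median of 0.23 (10 and 4 at an unadjusted p under 0.05 in edgeR, 9 and 4 called by DESeq2). Tsc1 L-/- against control had 7 higher and 1 lower on this list, with a median of 0.85, beside 568 higher and 338 lower of all 13641 genes. Asns, asparagine synthetase, was at 6.94, 7.61, 4.67 and 10.4 CPM in Cpt2 L-/-, against 25.6, 20.4, 34.9 and 19.7 CPM in DKO (log2 fold change 1.78, SE 0.66, adjusted p = 0.0784). Every DKO library was above every Cpt2 L-/- library, but the gene was not called. Tsc1 L-/- livers held 50.4 ± 43.1 CPM. A fit of the 8 libraries alone, DESeq2 and limma on log2(FPKM + 1) did call it (adjusted p = 0.000743 to 0.191 over the alternatives). Trib3, a pseudokinase induced by Atf4, was at 40.9 ± 16.8 and 66.6 ± 5.87 CPM and Chac1, which degrades glutathione, at 8.69 ± 5.21 and 6.41 ± 2.96 CPM, and neither was called (adjusted p = 0.482 and 0.661). Trib3 was called only in the fit of the 8 libraries (adjusted p = 0.0428 to 0.645). Pck2, the mitochondrial PEP carboxykinase, was at 18.5, 11.9, 8.74 and 18.6 CPM in Cpt2 L-/-, against 28.1, 40.8, 31.3 and 22.8 CPM in DKO (log2 fold change 1.10, SE 0.30, adjusted p = 0.0196). Pck2 lost its call without Cpt2 L-/- 3, without DKO 2 and in the fit of all 24 libraries (adjusted p = 0.00365 to 0.0701).

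Of 26 amino acid transporters 2 were higher (7.69%) and 7 lower (26.9%), with a median of -0.25. Slc7a11, the cystine transporter, was at 0.907, 0.761, 1.95 and 10.1 CPM in Cpt2 L-/-, against 0, 0.0525, 0.261 and 0.16 CPM in DKO (log2 fold change -4.78, SE 0.98, adjusted p = 0.00533). Its DKO libraries were near the floor of 3 counts, and without any 1 library the log2 fold change was -5.40 to -3.30. Cpt2 L-/- 4 stood above the other 3 of its group, yet all DKO values were below all Cpt2 L-/- values, and the call was lost only on log2(FPKM + 1) (adjusted p = 0.000779 to 0.0744). Slc1a4, a transporter of alanine, serine and cysteine, was at 8.54, 7.04, 11.3 and 20.6 CPM in Cpt2 L-/-, against 2.74, 3.15, 2.8 and 2.83 CPM in DKO (log2 fold change -2.02, SE 0.36, adjusted p = 0.00131). Slc7a5, the large neutral amino acid transporter, was at 10.8 ± 4.59 and 5.46 ± 1.22 CPM (log2 fold change -0.96, adjusted p = 0.0197), and its partner chain Slc3a2 at 121 ± 34.0 and 214 ± 46.9 CPM (log2 fold change 0.84, adjusted p = 0.0278), so the 2 chains of this transporter changed in opposite directions. The call of Slc7a5 was lost without Cpt2 L-/- 4, DKO 1 or DKO 2 and on log2(FPKM + 0.1), and that of Slc3a2 without Cpt2 L-/- 1, Cpt2 L-/- 2, Cpt2 L-/- 3, DKO 2 or DKO 3 and without the filter (adjusted p = 0.00344 to 0.0909 and 0.00834 to 0.0961).

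Glutamine and glutamate handling stood out by size. Glul (chromosome 1 from 153899944 to 153909723), glutamine synthetase of the hepatocytes around the central vein, was at 321, 272, 331 and 243 CPM in Cpt2 L-/-, against 954, 848, 717 and 968 CPM in DKO (log2 fold change 1.60, SE 0.20, adjusted p = 6.18e-05). Slc1a2 (chromosome 2 from 102658659 to 102790784), the glutamate transporter of the same cells, was at 28.8, 26.5, 33.2 and 42.5 CPM in Cpt2 L-/-, against 229.8, 172, 194 and 197 CPM in DKO (log2 fold change 2.62, SE 0.17, adjusted p = 1.16e-07). For both genes the DKO libraries were well above the Cpt2 L-/- libraries and below the control means of 1416 ± 296 and 279.9 ± 32.2 CPM. Gls2 (chromosome 10 from 128194457 to 128210004), the liver glutaminase of periportal hepatocytes, was at 117, 176, 138 and 138 CPM in Cpt2 L-/-, against 48.6, 40.1, 62.7 and 48.1 CPM in DKO (log2 fold change -1.50, SE 0.27, adjusted p = 0.00164), the other way round, beside 237 ± 101 CPM in control against 448 ± 114 CPM in Tsc1 L-/- livers. Without Cpt2 loss, in Tsc1 L-/- against control, Glul and Slc1a2 had log2 fold changes of -0.43 and -0.21, Gls2 of 0.92, and the interaction was called for all 3 genes (2.02, 2.83 and -2.41, adjusted p = 0.000892, 3.6e-06 and 0.00323).

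These genes belong to the zones of the liver lobule. Glul and Slc1a2 were the only 2 of 17 pericentral markers called, both higher, with a median of -0.27 over the list (2 and 4 at an unadjusted p under 0.05 in edgeR, 2 higher and 1 lower called by DESeq2). Of 15 periportal markers 0 were higher and 5 lower, which is 33.3% (0 and 7 at an unadjusted p under 0.05 in edgeR, 0 and 6 called by DESeq2), with a median of -0.34. In Tsc1 L-/- against control livers, where 568 of all 13641 genes were higher, the periportal list had 4 members called, all higher, and a median of 0.54. Sds, the serine dehydratase, was at 22.9, 63.4, 59.1 and 17.8 CPM in Cpt2 L-/-, against 7.47, 3.05, 10.6 and 5.83 CPM in DKO (log2 fold change -2.59, SE 0.64, adjusted p = 0.0152), and the groups were apart. Its call was lost without DKO 2 and in the fit of all 24 libraries (adjusted p = 0.000239 to 0.061). Hal, the histidine ammonia-lyase, was at 217 ± 95.6 and 68.3 ± 22.5 CPM (log2 fold change -1.65, adjusted p = 0.0398). Hal lost its call without any 1 library except Cpt2 L-/- 1, without the filter and in the fit of all 24 (adjusted p = 0.00802 to 0.112).

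Among 42 genes of the urea cycle and amino acid catabolism 3 rose (7.14%) and 9 fell (21.4%), with a median of -0.29 (4 and 18 at an unadjusted p under 0.05 in edgeR, 3 and 14 called by DESeq2). Otc, the urea cycle enzyme that makes citrulline, was at 113, 111, 125 and 159 CPM in Cpt2 L-/-, against 201, 209, 234 and 187 CPM in DKO (log2 fold change 0.73, SE 0.15, adjusted p = 0.00285), without overlap and below the 267 ± 17.5 CPM of control livers. Cps1, which starts the cycle, was at 5107 ± 955 and 2901 ± 1179 CPM and was not called (log2 fold change -0.80, adjusted p = 0.117). Aass, which begins lysine degradation, was at 570.2, 664, 594 and 477 CPM in Cpt2 L-/-, against 218, 129.9, 271 and 195 CPM in DKO (log2 fold change -1.48, SE 0.24, adjusted p = 0.000757), with the highest DKO library well below the lowest Cpt2 L-/- library. The list of 21 lysine and tryptophan genes to which it belongs had 2 higher (9.52%) and 3 lower (14.3%), beside 10.9% and 7.40% of all genes.

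**Figure D3:**
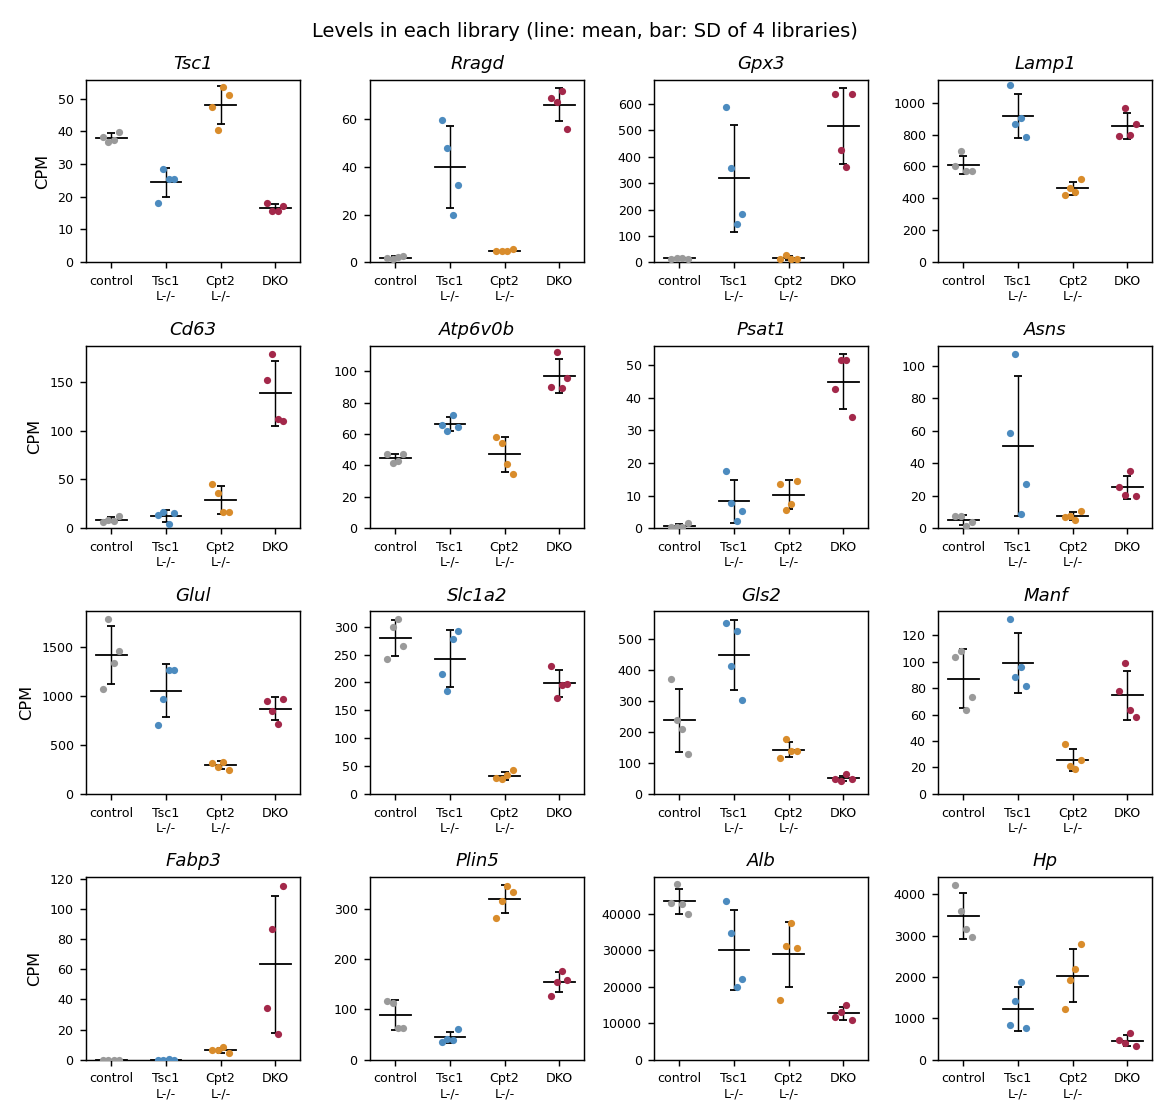
CPM of 16 genes in each library of 4 genotypes, ordered as control, Tsc1 L-/-, Cpt2 L-/- and DKO, with the mean as a line and the SD of 4 libraries as a bar. Rragd and Gpx3 are high in Tsc1 L-/- and DKO, Glul, Slc1a2 and Manf are low in Cpt2 L-/- alone of the 4 groups, and Plin5 is highest in Cpt2 L-/-.

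Of 35 genes of fatty acid oxidation and ketogenesis 0 were higher and 5 lower (14.3% lower, beside 7.40% of all genes), with a median of -0.12 (1 and 5 at an unadjusted p under 0.05 in edgeR, 0 and 5 called by DESeq2). The same list in Tsc1 L-/- against control had 1 higher and 20 lower and a median of -0.65, beside 568 higher and 338 lower of all 13641 genes. Cpt1a, which admits long-chain fatty acids to mitochondria, was at 1255, 1812, 1722 and 1813 CPM in Cpt2 L-/-, against 1452, 1092, 1351 and 1385 CPM in DKO (log2 fold change -0.30, SE 0.18, adjusted p = 0.256). Abcd3, a fatty acid transporter of peroxisomes, and Acaa2, a mitochondrial thiolase, fell from 1153 ± 230.4 and 726.3 ± 125 to 790.0 ± 169 and 524 ± 43.9 CPM (adjusted p = 0.0429 and 0.0305). Both were lost in the fit of all 24 libraries, on the FPKM values and without Cpt2 L-/- 2, Cpt2 L-/- 3, Cpt2 L-/- 4, DKO 1 or DKO 3, Abcd3 also in the fit of the 8 libraries and without DKO 2 and Acaa2 also without DKO 4 (adjusted p = 0.0141 to 0.131 for Abcd3 and 0.00419 to 0.0942 for Acaa2).

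Of 49 Pparα targets 4 were higher and 5 lower, a share of 18.4% called beside 18.3% of all genes, with a median of -0.14, and DESeq2 called 4 and 8. In the matching comparison without Cpt2 loss 12 were called, all lower, with a median of -0.64, beside 338 lower of all 13641 genes. Ppara itself was at 319 ± 46.9 and 242 ± 47.6 CPM (log2 fold change -0.38, adjusted p = 0.139), and the targets Fgf21, a fasting hormone, and Pdk4, an inhibitor of pyruvate dehydrogenase, were at 51.8 ± 14.2 and 549 ± 146 CPM in Cpt2 L-/- against 92.7 ± 40.6 and 711 ± 473 CPM in DKO (adjusted p = 0.377 and 0.563). Fabp3, a fatty acid binding protein of heart and muscle, was at 6.14, 6.15, 8.51 and 4.32 CPM in Cpt2 L-/-, against 34.2, 86.5, 17.0 and 115 CPM in DKO (log2 fold change 3.35, SE 0.52, adjusted p = 0.000968). The spread in DKO was wide, but its lowest value was above the highest in Cpt2 L-/-, and control livers held 0.0145 ± 0.0289 CPM. Aqp7, a glycerol channel, was at 4.06, 4.88, 3.19 and 3.07 CPM in Cpt2 L-/-, against 15.6, 16.9, 9.39 and 15.2 CPM in DKO (log2 fold change 1.93, SE 0.27, adjusted p = 0.000168). Ucp2, an uncoupling protein, was at 128, 130.1, 138 and 129 CPM in Cpt2 L-/-, against 245, 222, 231 and 263 CPM in DKO (log2 fold change 0.89, SE 0.18, adjusted p = 0.00296). Both were apart in the groups and lower in control livers, at 0.161 ± 0.128 and 55.7 ± 14.5 CPM.

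Plin5 (chromosome 17 from 56111601 to 56117596), a coat protein that links lipid droplets to mitochondria, was at 282, 316, 346 and 333 CPM in Cpt2 L-/-, against 127, 155, 175 and 159 CPM in DKO (log2 fold change -1.03, SE 0.20, adjusted p = 0.0025). Its DKO values were all under the Cpt2 L-/- values and above the 88.8 ± 29.3 CPM of control livers, and its call was lost only in the fit of all 24 libraries (adjusted p = 2.44e-05 to 0.22). Slc27a1, a fatty acid transport protein, was at 90.3, 167, 182 and 108 CPM in Cpt2 L-/-, against 51.1, 22.2, 43.4 and 45.7 CPM in DKO (log2 fold change -1.73, SE 0.31, adjusted p = 0.00189). Gpd1, which makes glycerol 3-phosphate, was at 347 ± 81.3 and 206 ± 33.1 CPM (log2 fold change -0.73, adjusted p = 0.0273). Gpd1 lost its call in the fit of all 24 libraries and without Cpt2 L-/- 3, Cpt2 L-/- 4, DKO 1, DKO 2 or DKO 3 (adjusted p = 0.00773 to 0.144). Plin5 and Gpd1 in Tsc1 L-/- against control had log2 fold changes of -1.0 and -1.46 (adjusted p = 0.00689 and 0.000656).

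In lipid synthesis 2 of 25 genes rose and 2 fell (16% called, beside 18.3% of all genes), and DESeq2 called 2 higher and 4 lower. Srebf1, the transcription factor of lipogenesis, was at 35.5 ± 7.8 and 29.0 ± 5.67 CPM (log2 fold change -0.27, adjusted p = 0.824). Fasn, fatty acid synthase, was at 62.4 ± 8.88 and 44.8 ± 6.5 CPM (log2 fold change -0.46, adjusted p = 0.561). Fasn was called lower in the fit of the 8 libraries only (adjusted p = 0.0244 to 0.705). Slc25a1, the mitochondrial citrate carrier, was at 165, 180.4, 173 and 167 CPM in Cpt2 L-/-, against 268, 312, 250.2 and 227 CPM in DKO (log2 fold change 0.64, SE 0.11, adjusted p = 0.00121). Tmem97, a regulator of cholesterol transport, was at 69.8, 82.5, 69.7 and 77.6 CPM in Cpt2 L-/-, against 131, 153, 146 and 110.5 CPM in DKO (log2 fold change 0.87, SE 0.18, adjusted p = 0.00317). For both genes every DKO library exceeded every Cpt2 L-/- library. Dgat1, which completes triglyceride synthesis, was at 55.2, 69.8, 67.9 and 68.2 CPM in Cpt2 L-/-, against 38.5, 40.8, 47.3 and 44.0 CPM in DKO (log2 fold change -0.60, SE 0.12, adjusted p = 0.00345). Dgat1 lost its call in the fit of all 24 libraries (adjusted p = 0.000174 to 0.0661). None of 25 cholesterol genes was called by edgeR, with 3 higher and 0 lower at an unadjusted p under 0.05, a median of 0.34 and 2 higher in DESeq2.

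Gluconeogenesis and glucose handling had 4 of 28 genes (14.3%) in each direction, beside 10.9% higher and 7.40% lower of all genes. Pck1, the cytosolic PEP carboxykinase, was at 4348, 4429, 4121 and 3930.1 CPM in Cpt2 L-/-, against 2740.5, 2149, 3100.4 and 2427 CPM in DKO (log2 fold change -0.67, SE 0.16, adjusted p = 0.0092). The groups were apart. Pck1 lost its call only in the fit of all 24 libraries (adjusted p = 9.94e-05 to 0.0661). G6pc, glucose 6-phosphatase, was at 106 ± 26.8 and 116 ± 65.1 CPM (log2 fold change 0.14, adjusted p = 0.783), beside 350.5 ± 76.4 CPM in control. Gys2, liver glycogen synthase, was at 299, 517, 456 and 325 CPM in Cpt2 L-/-, against 262, 145, 220.3 and 232 CPM in DKO (log2 fold change -0.88, SE 0.19, adjusted p = 0.00501). Gys2 lost its call only with all 24 libraries (adjusted p = 0.000224 to 0.146). In glycolysis and the pentose phosphate pathway 5 of 30 genes were higher (16.7%) and 1 lower (3.33%). Tkt, transketolase, was at 118, 126, 131 and 144 CPM in Cpt2 L-/-, against 164, 218, 194 and 168 CPM in DKO (log2 fold change 0.54, SE 0.13, adjusted p = 0.0107). Pgam1, phosphoglycerate mutase, was at 90.8 ± 11.1 and 128 ± 5.18 CPM (log2 fold change 0.51, adjusted p = 0.0132). Pgam1 lost its call without Cpt2 L-/- 3 and in the fit of all 24 libraries (adjusted p = 0.00184 to 0.103). Of 79 nuclear genes of the respiratory chain 7 were higher (8.86%, below the 10.9% of all genes) and 0 lower (18 and 0 unadjusted, 8 and 0 in DESeq2). With the replicate number as a block 11 were higher and 0 lower, where 1416 of all 13641 genes were higher. Of the 13 mitochondrial genes of the respiratory chain none was called by edgeR or DESeq2, with 1 lower at an unadjusted p under 0.05.

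Of 41 antioxidant and glutathione genes 10 were higher (24.4%) and 4 lower (9.76%). Gpx3 (chromosome 11 from 54902453 to 54910377), the secreted glutathione peroxidase, was at 11.96, 25.8, 10.6 and 11.5 CPM in Cpt2 L-/-, against 639.5, 427, 359.7 and 637 CPM in DKO (log2 fold change 5.13, SE 0.48, adjusted p = 2.63e-05). Every DKO value was more than 10 times every Cpt2 L-/- value, and Tsc1 L-/- livers held 319 ± 203 CPM against 14.3 ± 2.75 CPM in control. Gsta1, a glutathione S-transferase, was at 21.4, 9.0, 6.03 and 11.7 CPM in Cpt2 L-/-, against 44.3, 176, 75.8 and 29.5 CPM in DKO (log2 fold change 2.76, SE 0.64, adjusted p = 0.0105). Gstm3, another, was at 5.87, 2.22, 3.31 and 5.23 CPM in Cpt2 L-/-, against 14.4, 27.4, 13.0 and 10.6 CPM in DKO (log2 fold change 1.99, SE 0.43, adjusted p = 0.00565). DKO 2 was highest for both, and both calls were lost in the fit of all 24 libraries (adjusted p = 0.000786 to 0.0569 for Gsta1 and 1.28e-05 to 0.0728 for Gstm3). Nqo1, a quinone reductase, was at 11.3 ± 1.75 and 18.0 ± 3.05 CPM and not called (log2 fold change 0.69, adjusted p = 0.068), with 4 of 16 alternatives calling it (adjusted p = 0.0111 to 0.203). Hmox1, heme oxygenase 1, was at 73.6 ± 23.2 and 41.2 ± 9.15 CPM (log2 fold change -0.82, adjusted p = 0.0313). Hmox1 lost its call in 5 of 8 other fits and without any 1 library except Cpt2 L-/- 2 and DKO 4 (adjusted p = 0.00716 to 0.0943). Abcc2, the canalicular conjugate pump, was at 834, 811, 1165 and 1065 CPM in Cpt2 L-/-, against 548, 465, 597 and 659 CPM in DKO (log2 fold change -0.75, SE 0.16, adjusted p = 0.00356). Abcc2 lost its call only with all 24 libraries (adjusted p = 2.94e-05 to 0.114).

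Of 37 drug-metabolizing P450 genes and regulators 3 rose and 5 fell, a share of 21.6% beside 18.3% of all genes. Cyp2b10, a classical target of the receptor CAR, was at 12.1, 2.03, 10.8 and 3.98 CPM in Cpt2 L-/-, against 28.8, 53.9, 41.6 and 67.0 CPM in DKO (log2 fold change 2.73, SE 0.61, adjusted p = 0.00891), and at 81.2 ± 31.2 CPM in Tsc1 L-/- against 5.48 ± 3.62 CPM in control. Cyp2c39 was at 3.74, 2.03, 2.78 and 1.48 CPM in Cpt2 L-/-, against 105, 78.1, 59.1 and 90.2 CPM in DKO (log2 fold change 5.06, SE 1.05, adjusted p = 0.00658). It lies in a cluster of near-identical Cyp2c genes, varied in control livers (304 ± 144 CPM) and was lower in Tsc1 L-/- livers (17.9 ± 29.6 CPM). Cyp2r1, a vitamin D 25-hydroxylase, was at 6.51, 4.94, 4.61 and 7.5 CPM in Cpt2 L-/-, against 13.0, 13.5, 13.4 and 9.2 CPM in DKO (log2 fold change 1.07, SE 0.18, adjusted p = 0.000704). Cyp3a13 was at 95.0, 126, 123 and 108 CPM in Cpt2 L-/-, against 52.2, 35.6, 46.7 and 29.6 CPM in DKO (log2 fold change -1.44, SE 0.28, adjusted p = 0.003). Neither of these showed any overlap between the groups.

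The list of growth hormone and male-biased genes had 1 of 27 members higher (3.70%) and 6 lower (22.2%). Hsd3b5, a male-specific steroid enzyme, was at 4.06, 4.75, 6.08 and 7.61 CPM in Cpt2 L-/-, against 0.342, 0.105, 0.782 and 0 CPM in DKO (log2 fold change -4.22, SE 1.04, adjusted p = 0.0135). Cyp17a1, a steroid hydroxylase, was at 20.3, 29.8, 19.7 and 16.9 CPM in Cpt2 L-/-, against 0.571, 0.263, 2.74 and 2.57 CPM in DKO (log2 fold change -3.82, SE 1.01, adjusted p = 0.0217). DKO levels of both were near 0, and Cyp17a1 lost its call without DKO 1 or DKO 2 (adjusted p = 0.000268 to 0.0676). Igfbp3, a carrier of Igf1 made by nonparenchymal cells, was at 28.6, 41.1, 25.9 and 21.8 CPM in Cpt2 L-/-, against 13.5, 11.2, 15 and 12.1 CPM in DKO (log2 fold change -1.16, SE 0.25, adjusted p = 0.00501). Cyp4a12a, a male-biased P450, was at 244 ± 48.7 and 408 ± 37.6 CPM (log2 fold change 0.76, adjusted p = 0.014). Cyp4a12a lost its call without Cpt2 L-/- 3 and in the fit of all 24 libraries (adjusted p = 0.00359 to 0.254).

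Several secreted plasma proteins fell. In the acute phase list 0 of 33 genes were higher and 7 lower, which is 21.2% (2 and 10 at an unadjusted p under 0.05 in edgeR, 1 and 10 called by DESeq2), with a median of -0.44. Hp, haptoglobin, was at 1237, 1921, 2189 and 2806 CPM in Cpt2 L-/-, against 467, 415, 652 and 326 CPM in DKO (log2 fold change -2.11, SE 0.30, adjusted p = 0.000221), with a clear gap between the groups and 3488 ± 556 CPM in control against 1229.7 ± 526 CPM in Tsc1 L-/- livers. Fgb, a fibrinogen chain, was at 723, 992, 1281 and 809 CPM in Cpt2 L-/-, against 733, 302, 411 and 239.6 CPM in DKO (log2 fold change -1.16, SE 0.31, adjusted p = 0.0165), where DKO 1 overlapped with Cpt2 L-/-. The call was lost without Cpt2 L-/- 3, without DKO 2 and in the fit of all 24 libraries (adjusted p = 0.00102 to 0.0611). Saa1, serum amyloid A, spread over 23.6, 148, 18.5 and 1087 CPM in Cpt2 L-/- against 11.0, 15.5, 41.3 and 13.96 CPM in DKO and was not called (log2 fold change -3.93, adjusted p = 0.13), and DESeq2 alone called it (adjusted p = 0.0174 to 0.52).

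Alb, albumin, was at 16363, 31100.2, 37318 and 30683 CPM in Cpt2 L-/-, against 11743, 13179, 14994 and 10947 CPM in DKO (log2 fold change -1.16, SE 0.26, adjusted p = 0.00551), against 43409 ± 3454 CPM in control. All DKO values were lower than the lowest Cpt2 L-/- value, that of Cpt2 L-/- 1. Alb was 1 of 4 hepatocyte markers of 14 called lower, with Fgb, Ambp and Serpina1a, whereas Ttr, transthyretin, was higher at 1744 ± 326 and 2597 ± 364 CPM (log2 fold change 0.59, adjusted p = 0.0283). Ttr lost its call in the fit of all 24 libraries and without any 1 library except Cpt2 L-/- 2 and DKO 1 (adjusted p = 0.00721 to 0.131). Afp, α-fetoprotein of the fetal liver, was at 0.587, 0.507, 0.473 and 0.511 CPM in Cpt2 L-/-, against 6.11, 6.77, 4.43 and 1.71 CPM in DKO (log2 fold change 3.19, SE 0.39, adjusted p = 6.13e-05). It was about equal in the 4 Cpt2 L-/- libraries, below the 1.54 ± 0.251 CPM of control livers, and higher in each DKO library. In a list of 18 fetal liver and tumor genes 5 were higher (27.8%) and 0 lower (5 and 3 unadjusted, 5 and 1 in DESeq2).

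Of 21 p53 targets 3 were higher and 0 lower (6 and 1 unadjusted, 4 and 0 in DESeq2), so 14.3% were higher beside 10.9% of all genes. Bax, the apoptosis effector, was at 37.7, 24.8, 20.1 and 21.0 CPM in Cpt2 L-/-, against 51.0, 79.0, 59.7 and 60.9 CPM in DKO (log2 fold change 1.29, SE 0.18, adjusted p = 0.000206). Zmat3, a p53-induced RNA-binding protein, was at 19.9, 12.6, 11.6 and 16.9 CPM in Cpt2 L-/-, against 30.4, 32.9, 32.2 and 25.8 CPM in DKO (log2 fold change 1.01, SE 0.20, adjusted p = 0.00228), both without overlap. Eda2r, a death-domain receptor, was at 2.14 ± 0.794 and 5.51 ± 1.63 CPM (log2 fold change 1.37, adjusted p = 0.0153). Eda2r lost its call without Cpt2 L-/- 3 (adjusted p = 0.00343 to 0.0596). All 3 rose in Tsc1 L-/- livers too (log2 fold changes 0.84, 1.12 and 2.95). Cdkn1a, the p21 cell cycle inhibitor, was at 94.6 ± 33.1 and 104 ± 18.5 CPM (log2 fold change 0.15, adjusted p = 0.902). Of 27 cell cycle genes 5 were higher (18.5%) and 0 lower (9 and 3 unadjusted, 5 and 0 in DESeq2), at low levels. E2f1, a transcription factor of the S phase, was at 0.48, 1.46, 0.591 and 0.568 CPM in Cpt2 L-/-, against 3.65, 3.83, 3.26 and 1.44 CPM in DKO (log2 fold change 2.0, SE 0.36, adjusted p = 0.00148), where DKO 4 was just below Cpt2 L-/- 2. Cdk1, the mitotic kinase, was at 0.374, 0.38, 0.295 and 0.455 CPM in Cpt2 L-/-, against 1.65, 1.1, 0.587 and 0.962 CPM in DKO (log2 fold change 1.52, SE 0.39, adjusted p = 0.0114). Mki67, a marker of dividing cells, was at 1.04 ± 0.082 and 0.57 ± 0.11 CPM (log2 fold change -0.85, adjusted p = 0.0966).

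Of the 23 macrophage markers Fcgr1, Mpeg1, Csf1r, Cd5l, Clec4f, Vsig4, C1qa, C1qb and C1qc fell (39.1%), and the median was -0.62. Csf1r, the growth factor receptor of macrophages, was at 54.1, 33.4, 69.2 and 81.8 CPM in Cpt2 L-/-, against 37.5, 17.8, 31.9 and 26.9 CPM in DKO (log2 fold change -1.04, SE 0.26, adjusted p = 0.0135), with DKO 1 above Cpt2 L-/- 2. Mpeg1, a pore-forming protein of macrophages, was at 58.1, 34.5, 64.3 and 75.0 CPM in Cpt2 L-/-, against 30.0, 20.8, 29.2 and 23.5 CPM in DKO (log2 fold change -1.15, SE 0.28, adjusted p = 0.0109). Clec4f, a lectin of Kupffer cells, was at 82.7, 56.6, 91.6 and 87.9 CPM in Cpt2 L-/-, against 58.3, 38.9, 45.6 and 40.5 CPM in DKO (log2 fold change -0.78, SE 0.19, adjusted p = 0.00977), with the same overlap as Csf1r. The lowest Cpt2 L-/- library was replicate 2 for all 3 genes, and the lowest DKO library was replicate 2 as well. In Tsc1 L-/- against control livers no macrophage marker was called.

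Of 21 stellate cell and fibrosis markers 0 were higher and 5 lower, which is 23.8% (0 and 8 unadjusted, 0 and 7 in DESeq2). Col4a1, a chain of basement membrane collagen, was at 97.7, 78.3, 86.5 and 153 CPM in Cpt2 L-/-, against 39.9, 28.6, 46.0 and 39.7 CPM in DKO (log2 fold change -1.41, SE 0.22, adjusted p = 0.00065). Its partner Col4a2 was at 70.3, 82.0, 88.0 and 137 CPM in Cpt2 L-/-, against 35.2, 21.9, 32.4 and 30.3 CPM in DKO (log2 fold change -1.63, SE 0.22, adjusted p = 0.000168). Both were apart in the groups, and the DKO values were near the control means of 42.7 ± 7.49 and 32.9 ± 9.32 CPM. Lrat, which stores vitamin A in stellate cells, was at 14.9, 16.5, 15.4 and 18.9 CPM in Cpt2 L-/-, against 9.59, 7.88, 7.24 and 4.44 CPM in DKO (log2 fold change -1.16, SE 0.27, adjusted p = 0.00751). Col1a1, the main fibrillar collagen, was at 3.78 ± 1.51 and 3.92 ± 1.28 CPM (log2 fold change 0.08, adjusted p = 0.91). Among 18 sinusoidal endothelial markers 0 were higher and 2 lower, which is 11.1% beside 7.40% of all genes (1 and 3 unadjusted, 1 and 2 in DESeq2). Clec4g, a lectin of these cells, was at 40.4, 27.2, 35.0 and 33.4 CPM in Cpt2 L-/-, against 14.8, 14.5, 25.7 and 12.7 CPM in DKO (log2 fold change -0.99, SE 0.27, adjusted p = 0.0208). Clec4g lost its call without Cpt2 L-/- 1, DKO 1, DKO 2 or DKO 4 (adjusted p = 0.00242 to 0.0695), and Stab2, a scavenger receptor, at 77.1 ± 21.8 and 112 ± 28.3 CPM (log2 fold change 0.56, adjusted p = 0.0555) was called in 4 of 16 alternatives (adjusted p = 0.0186 to 0.206). The stellate markers summed to 1360 to 1789 CPM in Cpt2 L-/- and 922 to 1269 CPM in DKO, and the endothelial markers to 494 to 972 and 497 to 801 CPM. Of 7 lymphocyte markers 0 were higher and 1, Cd4, was lower (14.3%), with a median of -0.72 (0 and 3 unadjusted). Of 4 neutrophil markers none was called, with a median of -0.67 (0 and 1 unadjusted). None of the lymphocyte or neutrophil markers had a log2 fold change above 0. Of 10 cholangiocyte markers 1, Spp1, was higher (10%) and 0 lower, with a median of -0.27 (1 and 3 unadjusted, 1 and 1 in DESeq2). Of 6 red cell markers none was called, with a median of 0.48 (0 and 0 unadjusted). The part of cell composition in these differences was not tested. Among 13 immediate early genes, which respond to handling, 0 were higher and 2 lower, which is 15.4% (0 and 3 unadjusted, 0 and 2 in DESeq2). Junb was at 26.2, 32.3, 20.6 and 33.7 CPM in Cpt2 L-/-, against 11.8, 11.97, 12.6 and 14.8 CPM in DKO (log2 fold change -1.12, SE 0.21, adjusted p = 0.00156), without overlap. Egr1 was at 22.1 ± 7.33 and 7.19 ± 3.25 CPM (log2 fold change -1.61, adjusted p = 0.0336). Egr1 lost its call with the replicate block, without the filter and without Cpt2 L-/- 1, Cpt2 L-/- 2, Cpt2 L-/- 4, DKO 1 or DKO 2 (adjusted p = 0.00971 to 0.101).

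**Figure D4:**
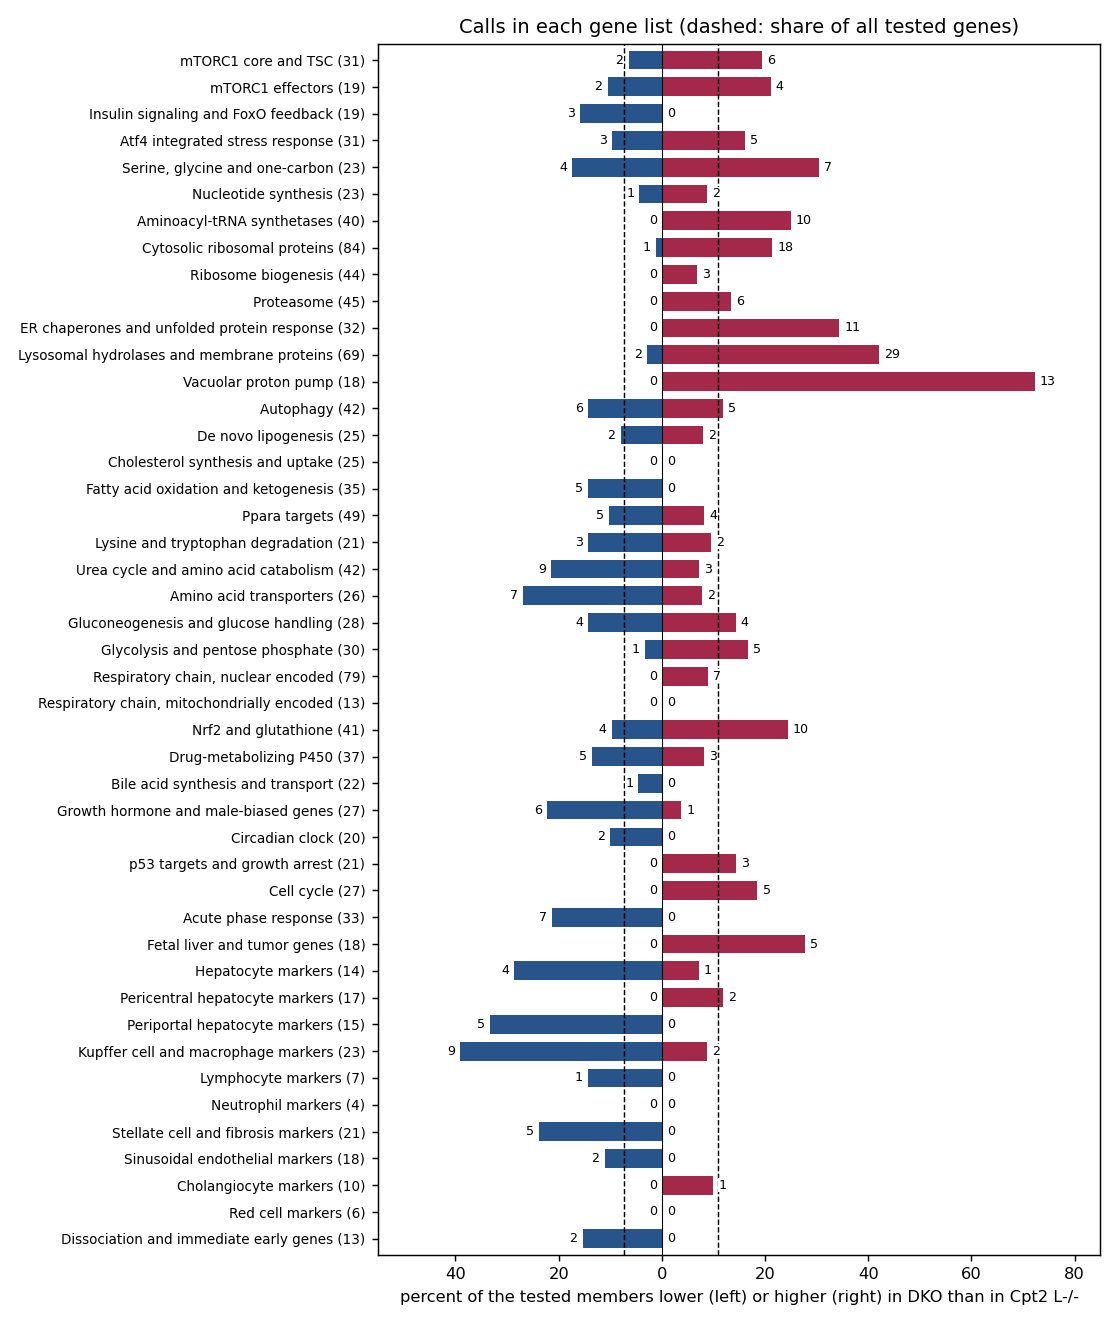
Percent of the tested members of each of 45 gene lists called higher (red, right) or lower (blue, left) in DKO than in Cpt2 L-/-, with the number of members called beside each bar and the number tested in parentheses. Dashed lines mark the shares over all genes, 10.9% higher and 7.40% lower, which the proton pump (13 of 18) and the lysosomal genes (29 of 69) exceed most on the right and the macrophage markers (9 of 23) on the left.

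The largest changes without regard to lists included genes that were almost silent in 1 genotype. Gdpd3, a lysophospholipase D, was at 0.16, 0.254, 0.177 and 0 CPM in Cpt2 L-/-, against 7.76, 12.6, 7.76 and 5.67 CPM in DKO (log2 fold change 5.80, SE 0.44, adjusted p = 3.84e-07), with Cpt2 L-/- near the floor of 3 counts. Slpi, a secreted protease inhibitor, was at 1.33, 3.11, 1.0 and 0.455 CPM in Cpt2 L-/-, against 81.5, 29.8, 21.3 and 89.1 CPM in DKO (log2 fold change 5.26, SE 0.68, adjusted p = 0.000327). Bex2, a small signaling adaptor, was at 0.641, 0.57, 0.236 and 0.852 CPM in Cpt2 L-/-, against 17.9, 16.3, 18.0 and 21.3 CPM in DKO (log2 fold change 4.99, SE 0.44, adjusted p = 2.52e-06). All 3 were near 0 in control livers (0.213 ± 0.0991, 0.95 ± 0.671 and 0.104 ± 0.165 CPM) and higher in Tsc1 L-/- livers (8.92 ± 2.54, 5.27 ± 3.02 and 2.65 ± 1.25 CPM), though for Slpi the rise in Tsc1 L-/- was not called (adjusted p = 0.0603). D7Ertd443e was at 1.6, 2.0, 1.89 and 2.46 CPM in DKO, at least 11.4-fold higher than in Cpt2 L-/- against the floor of 3 counts per library. In the other direction, Rab6b, a Golgi GTPase, was at 1.12, 1.71, 1.24 and 1.36 CPM in Cpt2 L-/- and at least 8.0-fold lower in DKO. Lamb3, a laminin chain, was at 52.6, 165, 158 and 99.7 CPM in Cpt2 L-/-, against 10.5, 7.82, 14.9 and 14.4 CPM in DKO (log2 fold change -3.30, SE 0.52, adjusted p = 0.00119). Aim1l was at 3.47, 3.68, 2.84 and 4.26 CPM in Cpt2 L-/-, against 0.342, 0.63, 0.261 and 0.107 CPM in DKO (log2 fold change -3.35, SE 0.46, adjusted p = 0.000141). Nat8, an acetyltransferase, and Raet1e, a ligand of natural killer cells, fell from 5.78 ± 2.14 and 4.31 ± 1.01 to 0.887 ± 0.547 and 0.668 ± 0.19 CPM (adjusted p = 0.0014 and 0.000713).

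The response to Tsc1 loss was then set beside that in livers with Cpt2 intact, a comparison that shares no library with the first. There 906 genes were called, 568 higher and 338 lower, and 583 without control 3. Both comparisons called 282 genes higher, which is 19% of the 1484 higher in DKO and 49.6% of the 568 higher in Tsc1 L-/-, and 95 lower, which is 9.41% of 1010 and 28.1% of 338. In all, 377 genes (2.76% of those tested) changed the same way in both, 9 were higher in DKO and lower in Tsc1 L-/-, and 8 the reverse. The count of 377 was 252 without control 3. Of the genes called in DKO, 73.9% had the same sign in Tsc1 L-/- against control, beside 62.0% of all genes. Across the 13641 genes the log2 fold changes had a Pearson r of 0.36 and a Spearman rho of 0.34, with genes not independent. The genes with the largest joint rises included Gdpd3, D7Ertd443e and Bex2, and those with the largest joint falls Lamb3, Nat8, Raet1e and Hsd3b5.

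**Figure D5:**
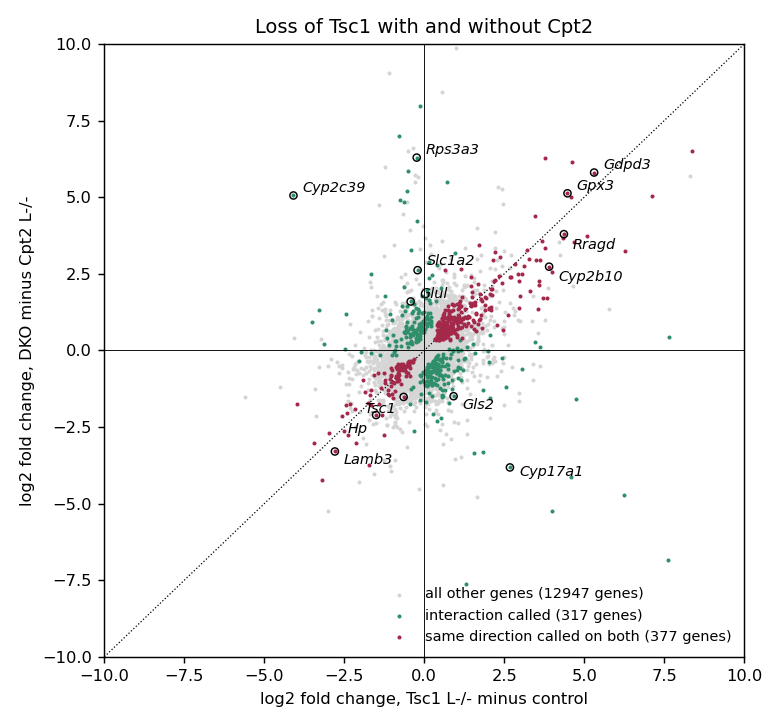
Log2 fold change of Tsc1 L-/- minus control (horizontal) against DKO minus Cpt2 L-/- (vertical) for the 13641 tested genes, with the dotted line marking equal change. Red points are the 377 genes called the same way in both and green points the other 317 genes called for the interaction, such as Cyp17a1 at 2.68 and -3.82.

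The interaction was called for 324 genes (2.38%), and 2577 genes had an unadjusted p under 0.05 for it. Its value, the log2 fold change in DKO minus that in Tsc1 L-/- livers, was positive for 149 of the calls and negative for 175. A differing effect of Tsc1 loss and a difference in the origin of the mice or libraries cannot be told apart in it. Of the 324 genes, 245 were among the 2494 calls of DKO against Cpt2 L-/- and 7 among the 377 shared calls. The number was 150 without DKO 2, 199 without Cpt2 L-/- 4, 206 without control 4, 207 without control 2 and 211 without Cpt2 L-/- 3. Tsc1 itself was one of them, with log2 fold changes of -1.52 in DKO against Cpt2 L-/- and -0.65 in Tsc1 L-/- against control (interaction -0.87, adjusted p = 0.0168). For some of the called genes Cpt2 L-/- stood apart from control, Tsc1 L-/- and DKO. Among the 1484 higher genes, 362 had all 4 Cpt2 L-/- libraries below the 12 from the other 3 genotypes, and among the 1010 lower genes, 248 had them above. Over all tested genes, 432 were below and 386 above.

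Genes near the deleted loci were checked because floxed alleles can carry flanking DNA of another strain. Within 10 Mb of Tsc1 on chromosome 2, 224 genes were tested and 23 were higher and 20 lower in DKO (19.2%). Within 10 Mb of Cpt2 on chromosome 4, 134 were tested, with 16 higher and 9 lower (18.7%). Both shares were close to the 18.3% of all genes. The floxed Cpt2 alleles are in both genotypes, so the Cpt2 window cannot show an effect of their flanking DNA. A share over a whole window would not show a few genes that differ for this reason near Tsc1 either.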

How the data were processed

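Livers of 24-h fasted mice were profiled with a stranded poly(A) kit and single 75-base reads. The authors deposited raw read counts per gene and FPKM values (fragments scaled to gene length and library size) made from them, 1 column per library. The submitters' processing notes name Bowtie 0.12.2, TopHat, STAR 2.5, STAR-Fusion, HTSeq 0.6.1, DESeq2 and edgeR and the builds mm8 and mm9, without roles. Gene coordinates in the deposited tables match GRCm38. No columns of the authors' own comparisons were used.

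Groups were taken from the genotype labels. Counts of 16 libraries (DKO, Cpt2 L-/-, Tsc1 L-/- and control) were filtered with filterByExpr (minimum count 10, minimum total 15), scaled by TMM and fitted by 1 robust quasi-likelihood model in edgeR 4.0.16 (R 4.3.3), with contrasts DKO minus Cpt2 L-/-, Tsc1 L-/- minus control and their difference, the interaction. Tests were two-sided with Benjamini-Hochberg adjustment over all genes and a threshold of 0.05. CPM were computed after TMM scaling over all 24 libraries, and libraries were compared on log2 CPM with a prior count of 2. A library was at the floor with 3 counts or fewer, and this floor covers counting error only. The 8 libraries held 14868666 to 18461578 counts each, and no 2 libraries were duplicates.

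Alternatives were RLE size factors, no filter, DESeq2 1.42.0, all 24 libraries, the compared groups alone, the replicate number as a block, an added fold threshold, limma 3.58.1 on log2(FPKM + 1) or log2(FPKM + 0.1), and leaving out each library. In simulated counts of 13155 tested genes, edgeR recovered 62 of 100 genes changed by 1 and 85 of 98 changed by 2 on the log2 scale, with 3 false among 150 calls. Few genes were changed in the simulation and all genotypes had the Cpt2 L-/- baseline, so these rates need not hold for the data.

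The genes described and the 45 gene lists were chosen with earlier results of these data known. Named genes were the deleted genes, the 10 largest rises and falls without overlap and at 1 CPM or more, the leading and the most changed 3 members of each list, the 5 largest joint changes in each direction and the 5 largest interactions in each direction. A few others, named without values, are list members or were chosen after their values were seen. Plots were drawn with matplotlib 3.10.9. A few genes that this rule would name are not reported here.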

Additional observations from a re-analysis of the deposited data

Results flagged for a closer look

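For 20 of 290 sets of 4 libraries (1 gene in 1 genotype), 1 library lay far from the other 3, with its gap to the nearest of them making up most of the range of the set, a state that chance gives in about 1 of 20 sets. In Cpt2 L-/- the ratio of gap to range was 0.859 for Rragd, 0.872 for Slc7a11, 0.856 for Srebf1 and 0.878 for Saa1, with replicate 4 high in each. Cpt2 L-/- 2 was high for Gpx3 (0.913) and E2f1 (0.887), and Cpt2 L-/- 1 was low for Cpt1a (0.836) and Dgat1 (0.869). In DKO replicate 2 was high for Atp6v0d1 (0.961), Psph (0.911) and Rps27l (0.842) and low for Ppara (0.855). DKO 4 was high for Trib3 (0.896) and low for Cyp2r1 (0.873). DKO 3 was high for Hgsnat (0.89), Saa1 (0.852) and Clec4g (0.842), and DKO 1 was low for Ttr (0.845). The ratio was 1 for D7Ertd443e in Cpt2 L-/- 3 and for Rab6b in DKO 2, where the single library held under 3 counts and the others none. The DKO and Cpt2 L-/- values of Slc7a11 and Gpx3 did not overlap with the distant library included.

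By edgeR the interaction was called for 30 of 145 genes followed. Its term is given here on the log2 scale as the change in DKO minus the change in Tsc1 L-/-. It was positive for Cyp2c39 (9.15), Hist1h2al (8.12), Rps3a3 (6.53), Cd1d2 (6.34) and Rps3a2 (4.45). Among metabolic and secreted proteins it was positive for Slc1a2 (2.83), Afp (2.24), Glul (2.02), Psph (1.49), Manf (1.36), Cyp2r1 (1.05), Psmd14 (0.79) and Slc25a1 (0.74). It was negative for Rab6b (-9.24), Cyp17a1 (-6.50), Aim1l (-4.89), Gls2 (-2.41), Cyp3a13 (-1.99), Slc7a5 (-1.82), Hmox1 (-1.55) and Gys2 (-1.13). Collagen IV genes had negative values as well, of -1.31 for Col4a1 and -1.49 for Col4a2, as did Junb (-1.35). In signaling and autophagy it was negative for Atg2a (-1.22), Insr (-1.0), Tsc1 (-0.87), Ulk1 (-0.78), Tecpr1 (-0.76) and Maf1 (-0.62). The values for Hist1h2al and Rab6b depend on the prior count of the fit, since 1 genotype held at most 3 counts per library.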

How the results depend on the processing

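The 2494 calls of DKO against Cpt2 L-/- stayed within 1.5 times under RLE size factors (2470), no filter (2074), DESeq2 (3001), the 8 libraries alone (2624), the replicate block (2333) and limma on FPKM (2290 and 2245). The fit of all 24 libraries gave 1065 calls, 1051 of them among the 2494, and 400 calls for Tsc1 L-/- against control, 65 for the interaction and 142 shared by both comparisons. With a log2 fold change of at least 1 as well, these were 700, 368, 188 and 129. In fits of the groups compared alone, Tsc1 L-/- against control had 466 calls and 230 were shared, and the interaction, which needs all 4 genotypes, has no such fit. The interaction had 752 calls in DESeq2 and 195 on log2(FPKM + 0.1). The cause of these shifts was not tested. Leaving out 1 library gave 1428 to 2498 calls for DKO against Cpt2 L-/-, 583 to 967 for Tsc1 L-/- against control, 150 to 403 for the interaction and 252 to 406 shared. On FPKM 73.3% (log2(FPKM + 1)) and 73.5% (log2(FPKM + 0.1)) of the calls were higher, against 59.5% on counts. Replicate numbers did not pair the samples, with correlations of the deviations of -0.11, 0.11, 0.01 and -0.06 for numbers 1 to 4 of DKO and Cpt2 L-/-. With the replicate number as a block there were 2333 calls, 808 for Tsc1 L-/- against control, 270 for the interaction and 344 shared, and 31 ribosomal protein genes were higher in place of 18, 11 nuclear genes of the respiratory chain in place of 7 and 2 mTorc1 effectors in place of 4. The block gave 1 effector, 1 lipid synthesis gene and 1 immediate early gene lower in place of 2 each, and 5 insulin signaling genes in place of 3. In DESeq2 3 genes of glycolysis and the pentose phosphate pathway were lower in place of 1. Of 115 called genes followed, 83 kept the call without any 1 library, 74 in the other settings and 67 in both, 35 lost it with all 24 libraries, and 7 of 30 uncalled genes gained one somewhere. These counts leave out the added fold criterion, which 46 of the 115 did not meet. None of the 115 changed sign. Depth of 14868666 to 18461578 counts limits genes near the floor of 3 counts per library in 1 genotype, such as Gdpd3 and Slc7a11, whose fitted fold changes depend on the prior count and are imprecise (-5.40 to -3.30 for Slc7a11 without any 1 library).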
